A study of Mus musculus with 26 samples.

Results

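The comparison described here is the diet by genotype interaction in mouse muscle: the effect of calorie restriction (CR) in mice labelled MKO minus its effect in FLOX mice, on the log2 scale. It uses all 26 arrays of the series, taken by their titles, and every gene named by a probe set that names exactly 1 gene. Of 18193 such genes, 14854 passed a filter on dim probe sets and were tested. The question it addresses is whether the muscle responds to restriction in the same way with and without PGC-1a in its fibres. No gene passed. Of 14854 genes 0 (0%) had an interaction at a Benjamini-Hochberg adjusted p under 0.05 in limma, and the smallest adjusted p was 0.389.

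The tissue was tibialis anterior and extensor digitorum longus (TA/EDL), fast-twitch muscles that lift the foot and extend the toes, with 1 one-colour Affymetrix array of total RNA per mouse. There were 7 CR MKO, 7 control-diet MKO, 6 CR FLOX and 6 control-diet FLOX mice. The label MKO stands for a knockout of PGC-1a in skeletal muscle only, FLOX mice are their littermates, which serve as controls, and both were of mixed C57/BL6 and 129 background and were housed singly. Control mice ate 90% of their own free intake, and CR mice ate 80% of it for the first week and 60%, as a purified diet made for 40% restriction, for about 11 weeks more. The control diet was thus itself mildly limited. Age, sex and the Cre driver of the knockout are not stated in the labels used. Because each array is 1 mouse, the spread between arrays is that between mice.

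Ppargc1a encodes PGC-1a, a coactivator of transcription. In muscle it works with the estrogen-related receptors, the nuclear respiratory factors and other DNA-bound factors to raise genes of fatty acid oxidation, the TCA cycle and the respiratory chain, and it is itself induced by exercise and fasting through AMPK, calcium and cyclic AMP signals. Calorie restriction is known to lower growth signalling and to shift fuel use, and its effect on muscle mitochondria has been studied widely. A gene that needs PGC-1a for its response would move under CR in FLOX mice and move less, or not at all, in MKO mice, which gives an interaction away from 0.

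Promoter sequences are shown for the genes of smallest interaction p, Kcnab1 and Mtfp1, which lead the list of differences and give a view of the motifs searched. Each window runs from 250 bases before to 50 after an annotated start, from RefSeq (GRCm38.p6), written 5′ to 3′ on the strand of the gene, with CACGTG, the E box bound by clock and other basic helix-loop-helix factors, in capitals. The first Kcnab1 window lies at chr3:65108764-65109063 and the second at chr3:65187853-65188152, both on the plus strand, and a further window of this gene holds none of the motifs. The Mtfp1 window lies at chr11:4095382-4095681 on the minus strand and holds none of the motifs searched.
Kcnab1, first window: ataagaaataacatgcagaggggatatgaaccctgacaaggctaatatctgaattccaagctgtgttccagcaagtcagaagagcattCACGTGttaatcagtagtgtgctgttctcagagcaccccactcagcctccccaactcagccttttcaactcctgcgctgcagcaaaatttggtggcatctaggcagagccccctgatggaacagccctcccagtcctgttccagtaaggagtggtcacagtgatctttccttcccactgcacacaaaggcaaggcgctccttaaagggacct
Kcnab1, second window: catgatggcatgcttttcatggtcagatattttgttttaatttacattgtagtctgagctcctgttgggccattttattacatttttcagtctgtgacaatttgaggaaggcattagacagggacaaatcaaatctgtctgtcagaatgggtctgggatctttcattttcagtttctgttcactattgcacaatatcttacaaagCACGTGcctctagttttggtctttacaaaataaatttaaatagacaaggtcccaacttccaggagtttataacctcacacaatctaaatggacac
Mtfp1: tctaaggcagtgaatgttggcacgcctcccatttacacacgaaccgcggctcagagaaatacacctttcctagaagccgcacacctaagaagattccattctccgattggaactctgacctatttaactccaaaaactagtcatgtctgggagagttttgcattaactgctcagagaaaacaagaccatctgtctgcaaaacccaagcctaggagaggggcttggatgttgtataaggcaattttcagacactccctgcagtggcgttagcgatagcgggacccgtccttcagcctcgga

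The motifs searched on both strands were TNAAGGTCA, an estrogen-related receptor element, TGACGTCA, the full cyclic AMP response element and CACGTG. Each was counted on its own, whether or not its letters overlapped another motif. Over the 11882 tested genes with a window, 1.04% held the first, 3.16% the second and 10.9% the third. Of the 8 genes with the smallest interaction p and a lower diet effect in MKO, 6 had a window, and 0 held the first motif, 0 the second and 1 the third. Of the 8 with a higher diet effect in MKO, 7 had a window and again 0, 0 and 1 held them, the last being Rps19. Among 63 respiratory chain genes with a window 2, 4 and 6 held the motifs in the same order, and among 64 mitochondrial ribosome genes 0, 2 and 4. A match describes these letters in this window and is not a site of binding.

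The arrays were alike in scale. Their median intensities lay between 212.4 and 232.4 and their lowest values between 56.57 and 62.84, a floor that compresses the differences of dim genes. Arrays of 1 group correlated at 0.9838 to 0.996, and no pair held identical values. The markers of muscle fibres defined the tissue, with a summed intensity of 263900 to 271700 in CR MKO, 263600 to 271700 in control-diet MKO, 268900 to 273200 in CR FLOX and 260500 to 270200 in control-diet FLOX mice.

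The targeted gene did not separate the labels in the way a knockout would. The intensity of Ppargc1a (lowest, median and highest mouse) was 1473, 1641 and 1966 in CR MKO, 1244, 1425 and 2360 in control-diet MKO, 908.1, 1021 and 1411 in CR FLOX and 797.2, 922.8 and 984.6 in control-diet FLOX mice. On either diet every mouse labelled MKO was above every FLOX mouse. Neither the labels nor the tables used say whether the probes fall inside the deleted part. Probes outside it would check nothing, so MKO stands throughout for the label, and every direction below rests on it. The interaction of Ppargc1a was -0.12 ± 0.15 (SE, 95% interval -0.43 to 0.20, limma adjusted p = 0.999) and lay between -0.19 and -0.12 over its 5 probe sets. It was -0.01 without control-diet MKO mouse 3, the mouse at 2360.

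CR acted on many genes in each genotype. In mice labelled MKO 986 genes rose (6.64%) and 1260 fell (8.48%), and in FLOX mice 692 rose (4.66%) and 798 fell (5.37%). Of the genes called in either genotype, 405 rose in both, 565 fell in both and 0 moved in opposite directions. Another 1276 were called in mice labelled MKO and not in FLOX, and 520 in FLOX and not in mice labelled MKO. A call in 1 genotype and not in the other does not show that the effects differ. The interaction passed for 0 of either set in limma. Its unadjusted p was under 0.05 for 226 of the 1276 (17.7%) and 117 of the 520 (22.5%), against 4.85% of all genes. Among the 970 genes called in both genotypes, 27 (2.78%) were under it. The genes called in 1 genotype were chosen for that inequality, so their shares are given without a test.

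The diet effects were of similar size. Over all 14854 genes the effects in the 2 genotypes, from separate mice, correlated at r = 0.745, which describes genes measured on the same arrays and carries no p. Among the 3542 genes called for the diet effect averaged over both genotypes, the median size was 0.16 in mice labelled MKO and 0.151 in FLOX mice, and 1628 of them (46%) had the smaller effect in MKO.

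**Figure D1:**
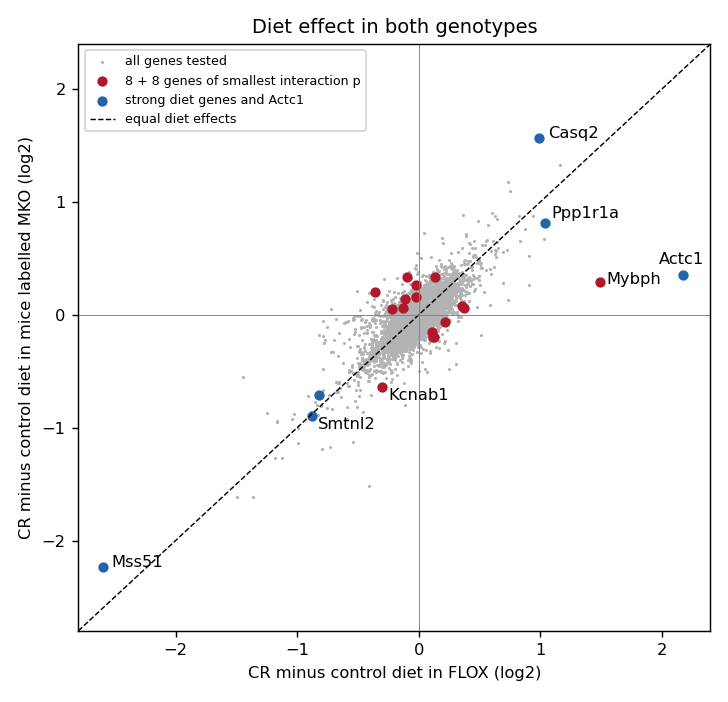
Diet effect (CR minus control diet, log2) in mice labelled MKO (vertical) against that in FLOX mice (horizontal) for 14854 genes (grey points). The dashed line marks equal effects, red points are the 16 genes of smallest interaction p and blue points are strong diet genes and Actc1. Smtnl2 lies near the line. Casq2 lies above it, with diet effects of 0.99 in FLOX and 1.57 in MKO. Actc1 and Mybph lie to the right of the line, with diet effects of 2.17 and 1.49 in FLOX and 0.35 and 0.29 in MKO.

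The same difference can be read as a change of the genotype effect with diet. On CR, 1222 genes were higher (8.23%) and 1345 lower (9.05%) in mice labelled MKO than in FLOX mice. On the control diet 1345 were higher (9.05%) and 1520 lower (10.2%). Of the genes called on either diet, 780 were higher and 853 lower on both, and 1 changed direction. That gene, Limch1, is described below. Among 4897 genes called for the average genotype effect the median size was 0.156 on CR and 0.161 on the control diet, and 2446 (49.9%) had the smaller effect on CR.

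The p-values of the interaction were spread evenly. At an unadjusted p under 0.05 there were 323 genes with a higher (2.17%) and 397 with a lower (2.67%) diet effect in mice labelled MKO, 720 in all (4.85%), close to the 5% that even spread gives. Bins of width 0.05 held between 696 and 805 genes each. Over all 34945 probe sets naming 1 gene, with no filter, 0 (0%) passed in limma, the smallest adjusted p was 0.291, for Sntb1, and 1652 had an unadjusted p under 0.05.

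**Figure D2:**
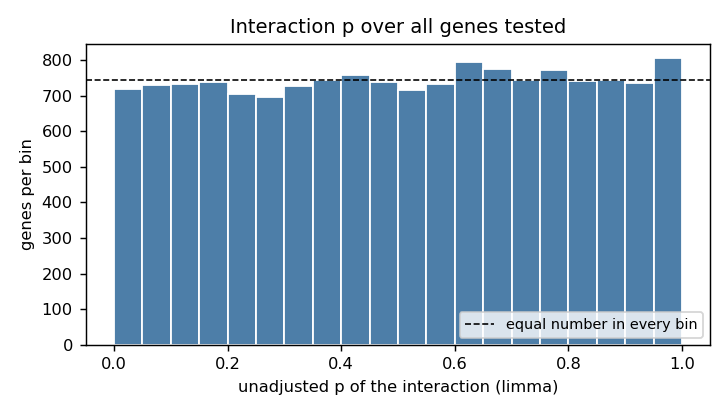
Number of genes (vertical) in each bin of unadjusted limma p of the interaction (horizontal, bins of width 0.05) over 14854 genes. The dashed line is the number every bin would hold if p were evenly spread. The bins hold 696 to 805 genes, and the bin nearest 0 holds 720.

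The sizes of difference that the data allow, gene by gene, are given by the intervals. The median estimate was -0.0012 and the median size 0.0509, with 7322 positive and 7532 negative estimates. The 95% interval had a median half-width of 0.151, a 1.11-fold difference, and in 90% of genes it lay between 0.101 and 0.314. For 10008 genes (67.4%) the whole interval lay within 0.25 of 0, for 14274 (96.1%) within 0.5 and for 14786 (99.5%) within 1, a 2-fold difference. Differences of 2-fold were therefore outside the interval for nearly all genes tested, each interval being taken alone. At the median half-width a difference under 1.11-fold would leave 0 within its interval. The intervals are not adjusted for the number of genes, so larger differences can also go without a call. Kcnab1 at 1.26-fold and Mybph at 2.3-fold had intervals without 0 and did not pass.

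Of the 720 genes at an unadjusted p under 0.05, 463 had diet effects of opposite sign in the 2 genotypes, 159 had the same sign and a larger size in MKO, and 98 the same sign and a larger size in FLOX. Their median size was 0.174. They were chosen for a difference between the 2 diet effects, which favours opposite signs. The share of opposite signs over all genes was not computed, so these counts are a description only. Only 41 genes of all 14854 had an estimate of at least 0.5 in size, 25 positive and 16 negative, and 3 exceeded 1: Actc1, Mybph and Pdk4.

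Among the 8 genes of smallest p with a lower diet effect in mice labelled MKO, Kcnab1 and Mtfp1 came first. None of the 8 passed. Kcnab1 encodes a beta subunit of voltage-gated potassium channels. Its intensity (lowest, median, highest) was 273.5, 292.1 and 337.5 in CR MKO, 430.9, 469 and 495.2 in control-diet MKO, 248.3, 269.4 and 289 in CR FLOX and 311.2, 333.1 and 368.5 in control-diet FLOX mice. In both genotypes every CR mouse was below every control mouse. CR lowered it by a log2 change of -0.64 in MKO and -0.30 in FLOX (limma adjusted p = 2.06e-09 and 0.000367), and the difference was -0.34 ± 0.07 (SE, 95% interval -0.48 to -0.19, limma adjusted p = 0.389). The genotype effect, MKO minus FLOX, was 0.13 on CR, which did not pass, and 0.47 on the control diet (limma adjusted p = 0.0662 and 1.63e-07).

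Mtfp1 encodes an inner membrane protein that promotes mitochondrial fission. It had 780.3, 804.4 and 885.5 in CR MKO, 866.6, 925.8 and 1011 in control-diet MKO, 1901, 2009 and 2176 in CR FLOX and 1699, 1888 and 2093 in control-diet FLOX mice. All mice labelled MKO were below all FLOX mice, and the 2 diets overlapped within each genotype. The diet effect was -0.20 in MKO, which passed, and 0.11 in FLOX, which did not (limma adjusted p = 0.00269 and 0.14), a difference of -0.31 ± 0.06 (95% interval -0.44 to -0.18, limma adjusted p = 0.389).

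Car2, a cytosolic carbonic anhydrase, was also far lower in mice labelled MKO on either diet. Its intensity was 217.4, 231.6 and 240.2 in CR MKO, 225.3, 241.2 and 261.9 in control-diet MKO, 575.7, 610.6 and 641.3 in CR FLOX and 464.8, 520.5 and 583.9 in control-diet FLOX mice. The FLOX groups overlapped a little and the MKO groups widely. The diet effect was -0.06 in MKO and 0.22 in FLOX, where it passed (limma adjusted p = 0.413 and 0.00348), and the interaction was -0.28 ± 0.06 (adjusted p = 0.488). Tm6sf1 had 273.2, 311.9 and 325.9 in CR MKO, 270.9, 291 and 306 in control-diet MKO, 429.9, 470.5 and 514.3 in CR FLOX and 333.2, 368.8 and 393.5 in control-diet FLOX mice. Here the 6 CR FLOX mice were above every control-diet FLOX mouse, and the MKO groups overlapped. Its diet effect was 0.08 in MKO and 0.36 in FLOX (adjusted p = 0.227 and 1.6e-05), with an interaction of -0.28 ± 0.06 (adjusted p = 0.488).

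**Figure D3:**
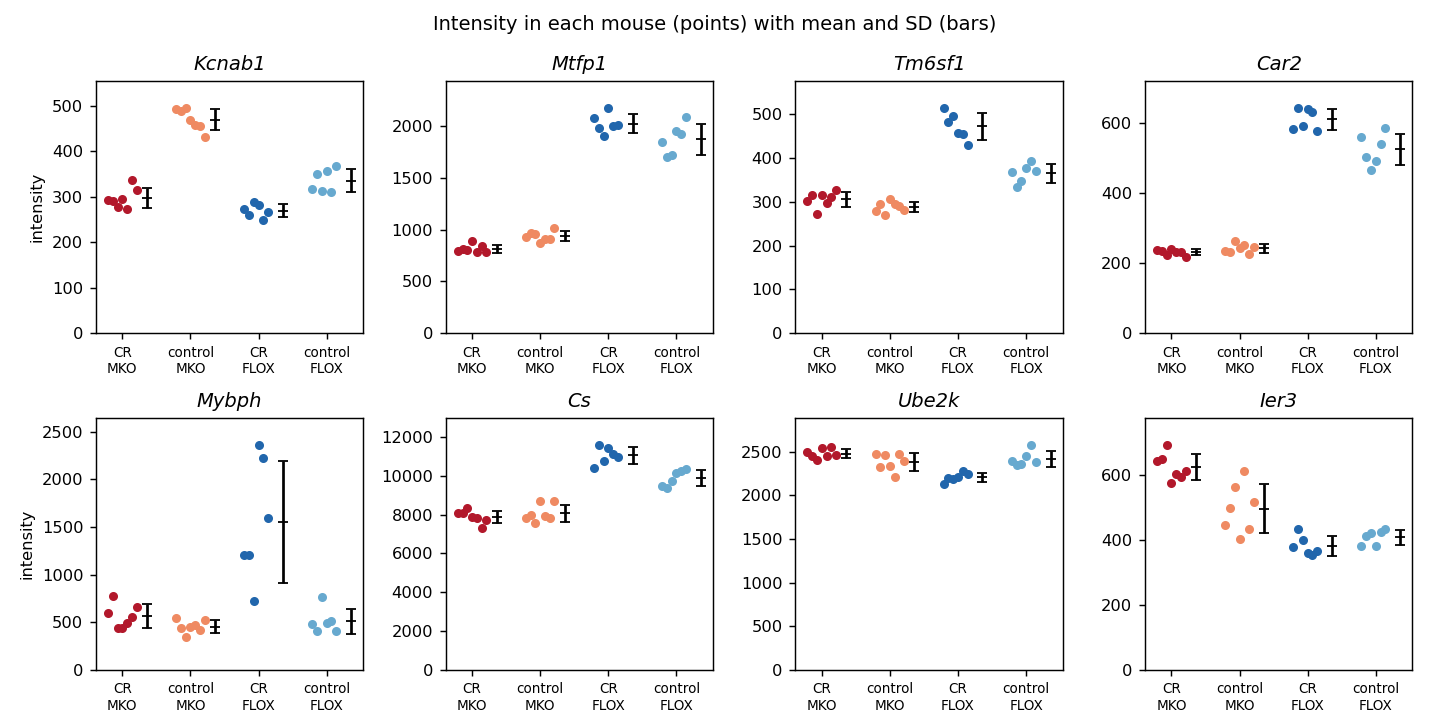
Intensity (vertical, linear from 0) of 8 genes in each mouse (points), with the mean and SD of the group (bars), for CR MKO, control-diet MKO, CR FLOX and control-diet FLOX mice from left to right. Kcnab1 is lower on CR in both genotypes, Car2 and Mtfp1 are far lower in mice labelled MKO on either diet, and Mybph is spread from 720.7 to 2363 in CR FLOX mice.

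Mybph and Actc1 had the largest differences in size. Mybph encodes myosin-binding protein H and Actc1 the cardiac alpha-actin, which fetal and regenerating skeletal muscle also makes. Mybph had 439.9, 555.4 and 773.6 in CR MKO, 344.3, 445.6 and 542.4 in control-diet MKO, 720.7, 1399 and 2363 in CR FLOX and 404.8, 486.3 and 764 in control-diet FLOX mice. Actc1 had 3066, 4934 and 12970 in CR MKO, 2708, 4240 and 10390 in control-diet MKO, 7116, 16390 and 24870 in CR FLOX and 1681, 4215 and 6143 in control-diet FLOX mice. For Actc1 every CR FLOX mouse was above every control-diet FLOX mouse, for Mybph 5 of 6 were, and in MKO the diets overlapped for both genes. Mybph had a diet effect of 0.29 in MKO and rose by 1.49 in FLOX (limma adjusted p = 0.346 and 4.07e-05), and the interaction was -1.20 ± 0.28 (95% interval -1.78 to -0.62, adjusted p = 0.488). Over the alternatives the limma adjusted p of Mybph ran from 0.0601, without CR FLOX mouse 3, to 0.961. Actc1 had a diet effect of 0.35 in MKO and rose by 2.17 in FLOX (limma adjusted p = 0.577 and 0.000485), and its interaction was -1.82 ± 0.52 (95% interval -2.89 to -0.75, adjusted p = 0.794).

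Limch1, which encodes a protein with LIM and calponin-homology domains, was the gene whose genotype effect changed direction. Its intensity was 1525, 1647 and 1779 in CR MKO, 1680, 1948 and 2124 in control-diet MKO, 1704, 1858 and 2023 in CR FLOX and 1593, 1691 and 1849 in control-diet FLOX mice, and neighbouring groups overlapped. The genotype effect was -0.16 on CR and 0.15 on the control diet (limma adjusted p = 0.0331 and 0.0422), and the interaction was -0.32 ± 0.08 (adjusted p = 0.488). Its 4 probe sets ranged from -0.32 to 0.07, so they disagreed in sign, and over the alternatives the value ran from -0.34 to -0.13. Dmd, which encodes dystrophin, had 1662, 1801 and 2064 in CR MKO, 1564, 1793 and 1889 in control-diet MKO, 1526, 1775 and 1965 in CR FLOX and 1264, 1338 and 1411 in control-diet FLOX mice. The control-diet FLOX mice were below every other mouse. The diet effect of Dmd was 0.06 in MKO and 0.37 in FLOX (limma adjusted p = 0.516 and 0.000181) and its interaction -0.31 ± 0.08 (adjusted p = 0.697), from -0.35 to -0.19 over the alternatives. Over the 3 passing probe sets of Dmd the interaction ran from -0.31 to -0.05. The eighth, Pgm5, a phosphoglucomutase relative found at cell junctions of muscle, had an interaction of -0.26 ± 0.07 (adjusted p = 0.697).

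The 8 genes of smallest p with a higher diet effect in mice labelled MKO did not pass either, and their adjusted p ran from 0.488 to 0.807. Ube2k, a ubiquitin-conjugating enzyme, had 2401, 2457 and 2555 in CR MKO, 2207, 2391 and 2473 in control-diet MKO, 2129, 2203 and 2277 in CR FLOX and 2342, 2389 and 2580 in control-diet FLOX mice. In FLOX the CR mice were below every control mouse. The diet effect was 0.06 in MKO and -0.13 in FLOX (limma adjusted p = 0.211 and 0.00896), a difference of 0.19 ± 0.04 (adjusted p = 0.488). Over the 4 passing probe sets of Ube2k the difference ran from 0.06 to 0.19. Ier3, an early stress-response gene, had 574.6, 612.5 and 694.1 in CR MKO, 403.2, 499.4 and 613.3 in control-diet MKO, 354.1, 371.9 and 435.4 in CR FLOX and 380.2, 417 and 434.8 in control-diet FLOX mice. The diets overlapped in both genotypes. Its diet effect was 0.33 in MKO and -0.10 in FLOX (limma adjusted p = 0.00145 and 0.509), a difference of 0.43 ± 0.10 (95% interval 0.22 to 0.64, adjusted p = 0.488).

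Rps19, a protein of the small ribosomal subunit, was among them. It had 4803, 4987 and 5592 in CR MKO, 3728, 4123 and 4236 in control-diet MKO, 4086, 4458 and 4593 in CR FLOX and 3960, 4022 and 4037 in control-diet FLOX mice. In each genotype the CR mice were all above the control mice. It rose by 0.33 in MKO and 0.13 in FLOX (limma adjusted p = 1.18e-06 and 0.0328), and the 2 rises differed by 0.20 ± 0.05 (adjusted p = 0.697). Fiz1, a zinc-finger protein, had 785.6, 870.6 and 940.6 in CR MKO, 628.7, 735.8 and 780.6 in control-diet MKO, 743.2, 808.8 and 882.3 in CR FLOX and 750.8, 822.2 and 874.9 in control-diet FLOX mice. The MKO diets were apart and the FLOX diets overlapped. Its interaction was 0.29 ± 0.07 (limma adjusted p = 0.697). Rab35, a small GTPase of endosomes, had an interaction of 0.19 ± 0.05, Sf3a2, a splicing factor, one of 0.26 ± 0.07, Lrrc3 one of 0.27 ± 0.07, and Plxna4os1, annotated as an antisense transcript of Plxna4, one of 0.56 ± 0.15. The 2 passing probe sets of Sf3a2 had interactions of 0.10 and 0.26.

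The genes with the smallest p for the diet effect averaged over both genotypes moved the same way in each. Mss51, a muscle protein linked to mitochondria, had 758.4, 1352 and 2055 in CR MKO, 4476, 6907 and 8108 in control-diet MKO, 341.6, 752.6 and 1202 in CR FLOX and 3587, 4249 and 6075 in control-diet FLOX mice. Every CR mouse was below every control mouse of its genotype. It fell in both, with a log2 change of -2.24 in MKO and -2.60 in FLOX, and the difference was 0.36 (95% interval -0.34 to 1.06), from 0.15 to 0.50 over the alternatives. Smtnl2, a smoothelin-like protein, had -0.90 in MKO and -0.88 in FLOX, both called, with a difference of -0.02 (95% interval -0.21 to 0.17). Serpinh1, the collagen chaperone, also fell, by log2 changes of -0.71 in MKO and -0.82 in FLOX (interaction 0.12, 95% interval -0.10 to 0.33). Fez2 and Anxa7 had differences of -0.03 and 0.09. The last of these 6 genes is Kcnab1, which fell in both genotypes and had the smallest interaction p of all genes tested, as described above.

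Of the genes that rose most firmly, Casq2 had the largest difference. Casq2 encodes the calsequestrin of cardiac and slow muscle, the calcium store of the sarcoplasmic reticulum. It had 1413, 1903 and 2266 in CR MKO, 469.4, 515.9 and 940.2 in control-diet MKO, 1389, 1840 and 2217 in CR FLOX and 686.4, 960.5 and 1093 in control-diet FLOX mice. It rose by 1.57 in MKO and by 0.99 in FLOX, and the interaction was 0.57 (95% interval 0.13 to 1.02, limma adjusted p = 0.999). In each genotype every CR mouse was above every control mouse, and within each diet the genotypes overlapped. Idh1, the cytosolic isocitrate dehydrogenase that makes NADPH, rose by 0.63 in MKO and by 0.42 in FLOX (interaction 0.21, 95% interval 0.01 to 0.41). For Ppp1r1a, an inhibitor of protein phosphatase 1, the interaction was -0.23 (95% interval -0.56 to 0.09), and for Tmem248, Hint3 and Lrg1 it was 0.03, -0.02 and -0.09.

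The genes with the smallest p for the average genotype effect were called in the same direction on both diets. Cox7a1, the muscle form of a complex IV subunit, was lower in mice labelled MKO, at -0.86 on CR and -0.72 on the control diet, with an interaction of -0.15 (95% interval -0.28 to -0.01). Phyh, a peroxisomal enzyme of alpha-oxidation, had an interaction of -0.12 (95% interval -0.27 to 0.03). Kcnq5, a potassium channel, had 488.7, 556.1 and 673.5 in CR MKO, 609.3, 694.7 and 771.3 in control-diet MKO, 278, 314.7 and 333.8 in CR FLOX and 324.3, 392.1 and 462.9 in control-diet FLOX mice. All mice labelled MKO were above all FLOX mice, and the interaction was 0.08 (95% interval -0.16 to 0.32). For Hcfc1r1, Cd55, Sppl2a, Pdlim3 and Cd24a, each higher in mice labelled MKO, it lay between -0.05 and 0.07, and for Fuom and Clybl, both lower, it was -0.07 and -0.06. The other members with lower values are Car2 and Mtfp1, described above, whose interactions were larger, at -0.28 (95% interval -0.41 to -0.14) and -0.31 (95% interval -0.44 to -0.18).

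**Figure D4:**
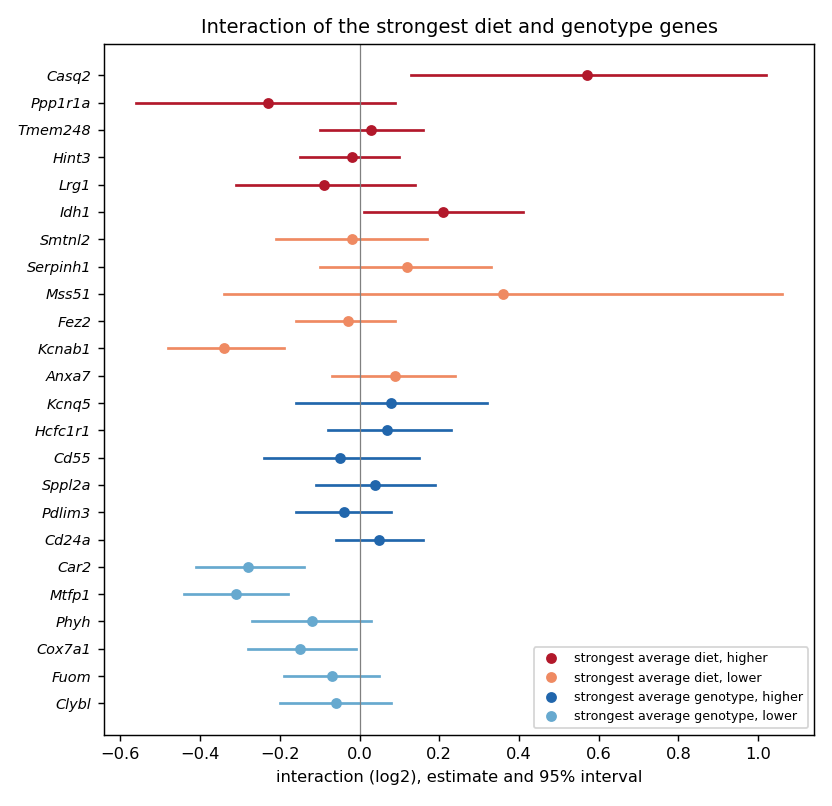
Interaction (horizontal, log2, estimate and 95% interval from limma) of the 24 genes with the smallest p for the diet effect or the genotype effect averaged over the other factor. Intervals of Mss51 and Casq2 are the widest, and those of Casq2, Idh1, Kcnab1, Car2, Mtfp1 and Cox7a1 do not hold 0. None of these genes passed after adjustment.

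The respiratory chain, which PGC-1a is best known for, showed a genotype difference on both diets and no detectable difference in its diet effect. Of 75 tested genes of complexes I to IV and the ATP synthase, 68 were lower in mice labelled MKO on CR and 72 on the control diet. Over all genes 9.05% were lower on CR and 10.2% on the control diet. Under CR 3 of the 75 rose and 7 fell in MKO, where 6.64% of all genes rose and 8.48% fell, and 3 rose and 5 fell in FLOX, where 4.66% of all genes rose and 5.37% fell. The diet counts were thus near the rate over all genes. Their mean log2 intensity was 12.99 ± 0.02 in CR MKO, 12.99 ± 0.05 in control-diet MKO, 13.24 ± 0.03 in CR FLOX and 13.23 ± 0.03 in control-diet FLOX mice (SD). All mice labelled MKO were below all FLOX mice, and the diets overlapped in both genotypes. The interaction of this mean was -0.011 ± 0.028 (SE). Its members had a median of -0.014, against -0.001 over all genes. At an unadjusted p under 0.05, 0 were higher and 1 (1.33%), Cox7a1, lower, against 2.17% and 2.67% of all genes.

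By complex the medians were -0.006 for 33 genes of complex I, -0.015 for 14 of complexes II and III, -0.020 for 13 of complex IV and -0.022 for 15 of the ATP synthase. The members of smallest p were small differences. Ndufa3 and Ndufa10 of complex I had 0.10 and -0.09, Uqcrc1 and Uqcrb of complex III -0.11 and 0.09, Cox8a of complex IV 0.10, and Atp5j and Atp5g2 of the ATP synthase 0.10 and 0.13. Their signs were mixed, and none passed.

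Cs, citrate synthase, is the enzyme of the first step of the TCA cycle. It had 7301, 7877 and 8321 in CR MKO, 7556, 7902 and 8718 in control-diet MKO, 10380, 11060 and 11600 in CR FLOX and 9354, 9931 and 10370 in control-diet FLOX mice. Every CR FLOX mouse was above every control-diet FLOX mouse, and the MKO diets overlapped. Cs had a diet effect of -0.03 in MKO and rose by 0.16 in FLOX (limma adjusted p = 0.641 and 0.0108), and the interaction was -0.19 ± 0.06 (95% interval -0.31 to -0.08, adjusted p = 0.794). All 3 of its probe sets were negative, from -0.19 to -0.13. Of 23 TCA cycle and pyruvate dehydrogenase genes 0 were higher and 3 lower at an unadjusted p under 0.05, namely Cs, the isocitrate dehydrogenase subunit Idh3a at -0.11 and Pdk4, with a median of -0.048. Of all genes 2.17% were higher and 2.67% lower at that p. The mean of the list was 11.89 ± 0.04 in CR MKO, 11.95 ± 0.07 in control-diet MKO, 12.19 ± 0.03 in CR FLOX and 12.16 ± 0.02 in control-diet FLOX mice (SD), an interaction of -0.087 ± 0.035 (SE). Pdk4, the lowest member at -1.10, weighs heavily in this mean, which was not computed without it.

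Pdk4, which inhibits the pyruvate dehydrogenase complex by phosphorylation, is described for its size and was chosen after its values were seen. It had 1537, 2232 and 4845 in CR MKO, 2243, 8726 and 11550 in control-diet MKO, 2232, 5467 and 12150 in CR FLOX and 4745, 7305 and 11970 in control-diet FLOX mice. Of the 7 CR MKO mice 4 were below every control-diet MKO mouse, and the FLOX diets overlapped. It fell in MKO, at -1.51, and had -0.41 in FLOX (limma adjusted p = 0.00485 and 0.606), and the interaction was -1.10 ± 0.53 (95% interval -2.19 to -0.01, adjusted p = 0.999).

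Breakdown of branched-chain amino acids, a pathway PGC-1a is known to raise, had a median of -0.085 over 18 genes, with 0 higher and 3 lower (16.7%), against 2.17% and 2.67% of all genes. None passed after adjustment. Hibch, a hydrolase of the valine branch, had 1101, 1175 and 1282 in CR MKO, 1054, 1133 and 1248 in control-diet MKO, 1419, 1466 and 1563 in CR FLOX and 1165, 1232 and 1314 in control-diet FLOX mice. The CR FLOX mice stood above all others. Hibch had a diet effect of 0.03 in MKO and rose by 0.26 in FLOX (limma adjusted p = 0.755 and 0.000782), with an interaction of -0.23 ± 0.06 (adjusted p = 0.777). Pcca and Pccb, the 2 subunits of propionyl-CoA carboxylase, had interactions of -0.18 and -0.17. Pcca fell in both genotypes, at -0.39 in MKO and -0.21 in FLOX, so its sign arose from a larger fall and not from a missing rise.

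The mitochondrial ribosome, the longest of the lists, held the largest number of members at an unadjusted p under 0.05. By share of lower members it came after branched-chain amino acid breakdown (16.7%), developmental sarcomere and myogenic genes (15.8%) and the TCA cycle list (13%). Of the 73 tested genes of the mitochondrial ribosome 1 (1.37%) was higher and 9 (12.3%) lower. Of all genes 2.17% were higher and 2.67% lower, and 0 of the 73 passed after adjustment. In FLOX 23 rose and 1 fell under CR, where 4.66% of all genes rose and 5.37% fell. In MKO 16 rose and 3 fell, where 6.64% of all genes rose and 8.48% fell. The list mean was 10.55 ± 0.03 in CR MKO, 10.48 ± 0.05 in control-diet MKO, 10.73 ± 0.04 in CR FLOX and 10.63 ± 0.04 in control-diet FLOX mice (SD), so its mean was higher on CR in both genotypes. The genes of 1 mouse share their array, and this count is a description with no test of the list. Mrpl45, a large-subunit protein, had 942.3, 1044 and 1085 in CR MKO, 962.7, 1024 and 1099 in control-diet MKO, 1438, 1532 and 1628 in CR FLOX and 1230, 1326 and 1378 in control-diet FLOX mice. Its CR and control FLOX mice did not overlap, and its MKO groups did. Mrpl45 had a diet effect of 0.00 in MKO and rose by 0.22 in FLOX (limma adjusted p = 0.964 and 0.00104), an interaction of -0.22 ± 0.06 (adjusted p = 0.697). The other 8 lower members were Mrpl3, Mrpl44, Mrpl10, Mrps31, Mrpl49, Mrpl16, Mrpl4 and Mrpl1, from -0.26 to -0.09, and the higher one was Mrpl20 at 0.38.

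The remaining mitochondrial lists lay close to all genes. Members are counted at an unadjusted p under 0.05, at which 2.17% of all genes were higher and 2.67% lower. Import, fusion, fission and quality control had a median of 0.004 with 1 higher and 2 lower of 27, the lower ones being the fission GTPase Dnm1l at -0.20 and the fusion GTPase Mfn1 at -0.22. Regulators of mitochondrial genes had -0.033, with 1 higher, the receptor gene Esrrb at 0.35 (0.11 with its probe sets averaged), and 1 lower, the mitochondrial rRNA methyltransferase gene Tfb1m at -0.16, of 23. Fatty acid uptake and beta-oxidation had -0.020 with 1 higher and 0 lower of 24. That gene, Acadl, the long-chain acyl-CoA dehydrogenase, rose by 0.38 in MKO and had 0.15 in FLOX (limma adjusted p = 7.92e-05 and 0.151), an interaction of 0.23 ± 0.09. Ucp3, a mitochondrial uncoupling protein, fell in MKO, at -0.80, and had -0.11 in FLOX (limma adjusted p = 0.0356 and 0.875), an interaction of -0.69 ± 0.38 (95% interval -1.47 to 0.09) that was -0.33 with its probe sets averaged.

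Sirtuins, which are NAD-dependent deacylases, AMPK subunits and NAD salvage enzymes had a median of -0.028. At an unadjusted p under 0.05, 0 were higher and 2 (9.52%) lower of 21, against 2.17% and 2.67% of all genes. Both lower members are mitochondrial sirtuins. Sirt3, a deacetylase, had 565.9, 610.3 and 616.6 in CR MKO, 569.5, 656.8 and 761.1 in control-diet MKO, 1054, 1106 and 1207 in CR FLOX and 945.3, 1035 and 1132 in control-diet FLOX mice. Sirt5, a desuccinylase, had 483.8, 524.1 and 564.5 in CR MKO, 471, 508.9 and 537.5 in control-diet MKO, 671.1, 719.1 and 791.1 in CR FLOX and 568.6, 595.4 and 649.5 in control-diet FLOX mice. Of these only Sirt5 in FLOX had diets that did not overlap. The interactions were -0.22 ± 0.07 for Sirt3 and -0.21 ± 0.06 for Sirt5 (limma adjusted p = 0.999 and 0.842).

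**Figure D5:**
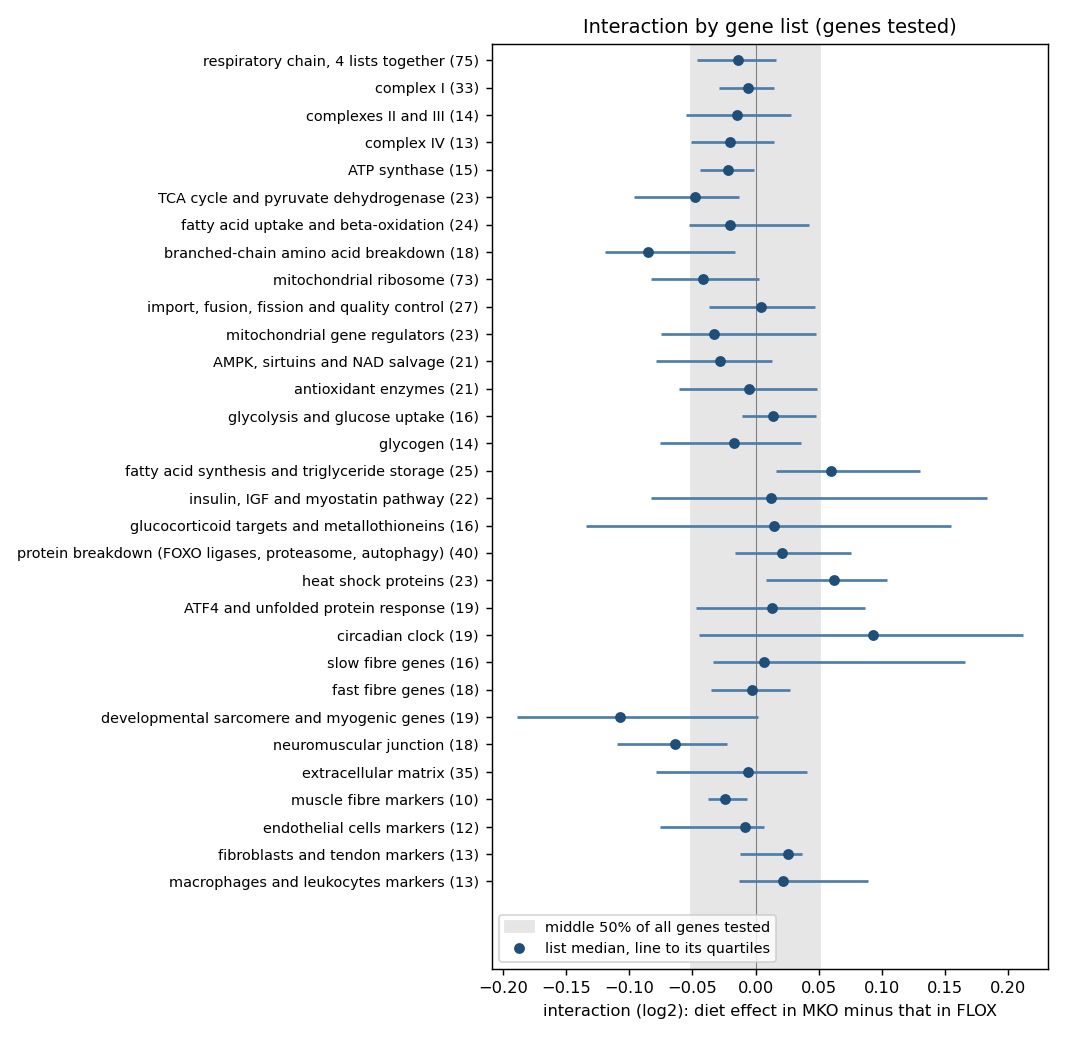
Median interaction (points, log2) and quartiles (lines) of the tested genes in each list, with the number tested in brackets. The grey band is the middle 50% of all 14854 genes. Medians run from -0.107 for developmental sarcomere genes to 0.093 for the clock, and the medians of the respiratory chain lists lie within the band.

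In the lists of fuel use outside the mitochondrion, members are counted at an unadjusted p under 0.05, which 4.85% of all genes had. Glycolysis and glucose uptake had a median of 0.014 with 1 higher of 16, Slc2a4, the insulin-responsive glucose transporter, at 0.15 ± 0.06. Pfkfb3, which makes the glycolytic activator fructose 2,6-bisphosphate, had 0.73 ± 0.50 (95% interval -0.29 to 1.76) and ranged from 0.44 to 0.94 over the alternatives. Glycogen genes had -0.017 with 0 of 14, where Phkg1 and Pgm2 had -0.13 and -0.07. Fatty acid synthesis and triglyceride storage had 0.060 with 0 of 25, among them Mid1ip1, which promotes fatty acid synthesis, at 0.45 ± 0.25 and the transcription factor gene Srebf1 at 0.25 ± 0.19. The insulin, IGF and myostatin pathway had 0.012 with 2 higher of 22, the phosphoinositide 3-kinase subunit Pik3r1 at 0.29 and the kinase Akt2 at 0.19.

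Stress and breakdown genes were similar, counted at the same unadjusted p under 0.05, which 4.85% of all genes had. Glucocorticoid targets and metallothioneins had a median of 0.015 and 0 of 16, with Per1 at 0.44 ± 0.28 and Fkbp5 at 0.29 ± 0.21. Fkbp5, a glucocorticoid-responsive chaperone, rose in both genotypes, by 0.90 in MKO and by 0.61 in FLOX (limma adjusted p = 7.94e-05 and 0.0104). Protein breakdown genes had 0.021 with 1 higher and 1 lower of 40, the proteasome genes Psmd2 at 0.18 and Psma1 at -0.10. Heat shock proteins had 0.062 and 0 of 23, with Dnaja1 at 0.15 and Dnajb1 at 0.09. Antioxidant enzymes had -0.005 with 1 higher of 21, thioredoxin, Txn1, at 0.20, while Gpx3, a secreted glutathione peroxidase, had 0.36 ± 0.19. ATF4 targets and the unfolded protein response had 0.013 and 0 of 19, with Atf4 at 0.12.

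Chac1, which degrades glutathione, had the largest positive estimate of all genes and a wide spread. It had 781.7, 1591 and 2177 in CR MKO, 1257, 2155 and 4310 in control-diet MKO, 490.8, 972.1 and 1636 in CR FLOX and 875.3, 2825 and 4616 in control-diet FLOX mice. The diets overlapped in both genotypes. The diet effect was -0.55 in MKO and, with a call, -1.44 in FLOX (limma adjusted p = 0.297 and 0.00849), and the interaction was 0.90 ± 0.48 (95% interval -0.09 to 1.88, limma adjusted p = 0.999).

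Clock genes had a median of 0.093 with 1 higher (5.26%) and 0 lower of 19, against 2.17% and 2.67% of all genes at an unadjusted p under 0.05. This median ranged from 0.039, where each gene was the mean of its probe sets, to 0.134, without CR FLOX mouse 3. Ciart, a circadian repressor, had 393.6, 561.6 and 612.6 in CR MKO, 244.7, 349.5 and 508.9 in control-diet MKO, 272.7, 363 and 556.3 in CR FLOX and 262, 387.2 and 481 in control-diet FLOX mice. It rose in MKO by 0.55 and had -0.01 in FLOX (limma adjusted p = 0.0212 and 0.983), an interaction of 0.56 ± 0.24. The receptor gene Rora had 0.18. A clock index, the mean log2 of 6 output and repressor genes minus that of 3 activator genes, was 1.62 ± 0.24 in CR MKO, 1.23 ± 0.24 in control-diet MKO, 1.78 ± 0.16 in CR FLOX and 1.49 ± 0.38 in control-diet FLOX mice (SD). The mean index was higher on CR in both genotypes, its interaction was 0.11, and its part in the interaction of other genes was tested only as a covariate, with which 0 genes passed and Mtfp1 had the smallest adjusted p, 0.0707.

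Sarcomere genes were read in slow, fast and developmental lists, which were not tested against each other. Their members are counted at an unadjusted p under 0.05, at which 2.17% of all genes were higher and 2.67% lower. Slow fibre genes had a median of 0.007 with 2 higher of 16, Casq2 and Pln, the inhibitor of the calcium pump, at 0.28. Fast fibre genes had -0.003 with 0 of 18, with Myoz1 at 0.06 and Mybpc2 at -0.09. The slow fibre index, the mean log2 of Myh7, Tnni1 and Tnnt1, was 9.02 ± 0.96 in CR MKO, 9.10 ± 0.59 in control-diet MKO, 8.53 ± 0.34 in CR FLOX and 8.58 ± 0.63 in control-diet FLOX mice (SD), an interaction of -0.02. Developmental sarcomere and myogenic genes had -0.107, with 0 higher and 3 lower (15.8%, against 2.67% of all genes) of 19, Mybph, Actc1 and the perinatal myosin Myh8 at -0.27. Their mean was 9.89 ± 0.12 in CR MKO, 9.86 ± 0.04 in control-diet MKO, 9.96 ± 0.06 in CR FLOX and 9.71 ± 0.06 in control-diet FLOX mice (SD). In FLOX the diets did not overlap, and in MKO they did. Actc1 and Mybph, with diet effects of 2.17 and 1.49 in FLOX, weigh heavily in this mean, which was not computed without them. Neuromuscular junction genes had -0.064 with 0 higher and 1 lower of 18, utrophin, Utrn, at -0.22, beside Erbb3 at -0.14.

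The extracellular matrix fell under CR in both genotypes. Of 35 genes 25 fell in mice labelled MKO and 23 in FLOX under CR, against 8.48% of all genes in MKO and 5.37% in FLOX. The median diet effects of the list were -0.372 in MKO and -0.376 in FLOX. Of the 35, 0 had an interaction at an unadjusted p under 0.05, against 4.85% of all genes. The median interaction was -0.006 and ran from -0.042 to 0.031 over the alternatives, with 0.002 after quantile normalization. Fn1, fibronectin, had -0.82 in MKO and -0.51 in FLOX, both called (limma adjusted p = 2.2e-05 and 0.00897), an interaction of -0.31 ± 0.17, and Postn, periostin, had -0.24 ± 0.13. Fibroblast and tendon markers moved with them. Their summed intensity was 17150 to 29050 in CR MKO, 28720 to 33390 in control-diet MKO, 19040 to 25910 in CR FLOX and 26450 to 32010 in control-diet FLOX mice. Of 13 markers 9 fell in MKO and 8 in FLOX, the median interaction was 0.026 with 0 at an unadjusted p under 0.05, and Scx and Thbs4 had 0.15 and -0.23. In whole muscle, fewer cells of a type and less RNA per cell cannot be told apart, and the part of these cells in the matrix genes was not tested.

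Of the endothelial markers 1 of 12 (8.33%) differed at an unadjusted p under 0.05, against 4.85% of all genes. Kdr, a receptor for VEGF, had 793.9, 963.8 and 1191 in CR MKO, 1172, 1381 and 1790 in control-diet MKO, 1095, 1164 and 1609 in CR FLOX and 1173, 1210 and 1427 in control-diet FLOX mice. Of the 7 CR MKO mice 6 were below every control-diet MKO mouse, and the FLOX diets overlapped. Kdr fell in MKO, at -0.50, and had 0.01 in FLOX (limma adjusted p = 0.000775 and 0.985), an interaction of -0.51 ± 0.14 (95% interval -0.80 to -0.21, adjusted p = 0.786). The 12 markers summed to 8190 to 9870 in CR MKO, 8897 to 10800 in control-diet MKO, 9458 to 10630 in CR FLOX and 9761 to 11110 in control-diet FLOX mice, and their median interaction was -0.008, with Vwf at -0.13. The part of endothelial content in the value of Kdr was not tested.

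Markers of other cells were also read, counted at an unadjusted p under 0.05, which 4.85% of all genes had. Macrophage and leukocyte markers had a median of 0.022 with 0 of 13, C1qb and Adgre1 having 0.15 and 0.07, and muscle fibre markers had -0.024 with 0 of 10, Neb and Mb having -0.08 and -0.06. For adipocytes, red cells and nerve only 4, 2 and 4 markers were tested. The adipocyte markers summed to 7078 to 8842 in CR MKO, 6857 to 8746 in control-diet MKO, 7791 to 8853 in CR FLOX and 7478 to 10580 in control-diet FLOX mice. The red cell markers summed to 509.5 to 877.3 in CR MKO, 420.9 to 731.1 in control-diet MKO, 452.9 to 1724 in CR FLOX and 430 to 928.4 in control-diet FLOX mice. The nerve markers summed to 1875 to 2928 in CR MKO, 1992 to 3535 in control-diet MKO, 1868 to 3418 in CR FLOX and 2018 to 2871 in control-diet FLOX mice, and all groups overlapped.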

How the data were processed

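The authors deposited linear-scale intensity values for 45101 probe sets on 26 arrays. How they summarized and normalized the probes was not given in the sources used here. No scan dates were used. Intensities were taken as log2(intensity + 16), which understates differences of dim genes, with no further normalization. Of the probe sets, 64 were controls, 34945 named 1 gene, 932 several and 9160 none, and those naming 1 gene were used. Symbols of 34741 were updated through gene identifiers and 204 kept. Probe sets whose mean was under the 30th percentile of all non-control probe sets were left out, and the brightest passing one was taken per gene, which left 14854 genes. Of these 6584 had several passing probe sets, and 1311 of the probe sets taken carry a suffix (_s_at or _x_at) for probes that can bind several transcripts.

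Genes were fitted by lmFit and eBayes of limma 3.58.1, run in R 4.3.3 (1 mean per group, 22 residual degrees of freedom), with Benjamini-Hochberg adjustment over all genes tested and a threshold of 0.05. Intervals are 95% and not adjusted. The script was tested on simulated data. Promoter windows came from RefSeq tables. The genes named are Ppargc1a, the 8 of smallest interaction p in each direction, the 6 of smallest p in each direction for the average diet and the average genotype effect, and the 2 members of smallest p in each list with at least 5 tested genes, 30 of 33 lists. Of 711 list memberships 663 were tested, 10 did not pass the filter, and for 38 no 1-gene probe set was found. Genes without a proper symbol were counted and not named. The members and lists were chosen with earlier results of these data known. Numbers in the array titles are shared between groups, and of 37 same-numbered pairs the deviations from the group means correlated at -0.36 to 0.34, over 0.1 in 16, so the numbers were not taken as pairs. Alternatives changed the pseudocount, filter, normalization, choice of probe set, variance model, array weights, covariates, threshold and mice.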

Additional observations from a re-analysis of the deposited data

Results flagged for a closer look

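Within each group of 6 or 7 mice, the highest or lowest mouse was singled out where its gap to the next was too large a share of the whole range by Dixon's criterion, a rule that chance alone meets in about 1 in 20 groups. It was met in 1 of 68 groups of gene values and 6 of 124 groups of list means. For Ppargc1a, control-diet MKO mouse 3 stood at an intensity of 2360, with the next mouse at 1518. The others are mean log2 values of lists. For branched-chain amino acid breakdown, control-diet FLOX mouse 5 stood at 10.54 (next 10.65), and for the mitochondrial ribosome, control-diet MKO mouse 4 at 10.38 (next 10.48). For fatty acid synthesis and triglyceride storage, control-diet FLOX mouse 3 stood at 10.64 (next 10.28). For protein breakdown, CR MKO mouse 1 stood at 11.21 (next 11.26). For slow fibre genes, CR MKO mouse 6 stood at 11.18 (next 10.45), and for developmental sarcomere genes, control-diet FLOX mouse 2 at 9.59 (next 9.71).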

How the results depend on the processing

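The count of genes called in the interaction by limma was 0 in each of 15 other settings and in each of the 26 fits that left out 1 mouse. The count at an unadjusted p under 0.05 was 601 to 921 under the other settings of the gene-level fit, which differ in the number of genes tested. The lowest was 601 of 11755, with the filter at the 50th percentile, and the highest 921 of 14854, with array weights. With 1 mouse left out it was 570 to 901 of 14854, against 720 (4.85%) in the main fit. With the number of the mouse as a replicate block, 0 genes passed, 767 had an unadjusted p under 0.05 and the smallest adjusted p was 0.559. The smallest adjusted p of any setting were 0.0601 (Mybph, without CR FLOX mouse 3), 0.0707 (Mtfp1, clock index as covariate) and 0.0935 (Tm6sf1, probe sets of a gene averaged). Under other alternatives the limma adjusted p of the same genes was as high as 0.961 for Mybph, 0.752 for Mtfp1 and 0.938 for Tm6sf1. Over all 34945 probe sets naming 1 gene, where more features are counted, the calls were 3896 for CR in MKO and 2441 for CR in FLOX. They were 4371 for MKO on CR and 4673 for MKO on the control diet, and 1652 of the 34945 had an unadjusted interaction p under 0.05. With 1 mouse left out, the calls among 14854 genes ranged from 1775 to 2290 for CR in MKO and 1137 to 1607 for CR in FLOX. They ranged from 2103 to 2731 for MKO on CR and 2249 to 3186 for MKO on the control diet. No estimate larger than its SE in both fits changed sign. Of 125 named genes and list medians 16 changed sign somewhere, 2 genes and 14 list medians. The median of the muscle fibre markers was -0.009 after quantile normalization. The interaction of 44 of 95 named genes moved by over 1.5 times under at least 1 alternative. The number of arrays and the unknown processing before deposit limit the precision.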

Other observations

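Genes outside the lists that had large differences were chosen after their values were seen, and none passed in limma. Peg3, an imprinted zinc-finger gene, had 734.2, 869.3 and 1360 in CR MKO, 601.2, 737 and 825.1 in control-diet MKO, 723.5, 885.6 and 1055 in CR FLOX and 338.3, 459.7 and 661.4 in control-diet FLOX mice. The CR FLOX mice were above every control-diet FLOX mouse, and the MKO diets overlapped. Its diet effect was 0.26 in MKO, and in FLOX it rose by 0.91 (limma adjusted p = 0.177 and 9.34e-05), an interaction of -0.65 ± 0.18 (adjusted p = 0.794), and its 3 probe sets ran from -0.65 to -0.41. Cish, a suppressor of cytokine and growth hormone signalling, had a diet effect of 0.21 in MKO and -0.51 in FLOX, an interaction of 0.72 ± 0.21 (limma adjusted p = 0.807). Fbp2, the muscle fructose-bisphosphatase, had 0.88 in MKO and 0.37 in FLOX, an interaction of 0.52 ± 0.18, and Bcl6, a transcriptional repressor, had -0.44 in MKO and 0.30 in FLOX, an interaction of -0.74 ± 0.27 (limma adjusted p = 0.999 for both). Inmt, a methyltransferase, had 0.73 in MKO and 0.04 in FLOX, an interaction of 0.69 ± 0.22 (limma adjusted p = 0.999).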
